A study of Homo sapiens and Mus musculus with 28 samples.

Results

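Described here are 10 genes that damp the RAS-ERK MAP kinase pathway or are switched on by it: SPRY1, SPRY2, SPRY4, SPRED1, SPRED2, DUSP4, DUSP5, DUSP6, ETV4 and ETV5. They were chosen by gene symbol, 10 of the 35135 human gene IDs in the count tables, from a list put together with earlier results of these libraries in view. Which comparison was in view is not recorded. The counts of genes that passed a test are therefore given as a description, beside the share of all genes that passed it, and no test of the list was made. All 10 genes passed the filter on low counts in each fit.

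The study knocked out REXO4, which encodes an exonuclease, in squamous carcinoma of the head and neck. Polyadenylated RNA was sequenced from SCC1, a human line established from such a cancer, in 8 groups of 3 libraries. In the knockout experiment the groups were KO_2 cells given BX-795, KO_2 cells given H-151, R4KO_2 cells with vehicle, R4KO_1 cells with vehicle, and Ctrl cells with vehicle, where R4KO_1 and R4KO_2 are REXO4 knockouts. H-151 blocks STING, an adaptor of innate immune sensing, by binding it covalently. BX-795 inhibits TBK1, a kinase downstream of STING, and also other kinases. In the second experiment the groups were H151_iR4, iR4 and Vehicle, and iR4 keeps the name in the labels. No group had H-151 without iR4, and no Ctrl cells were given H-151 or BX-795. An effect that an inhibitor has in any cells therefore cannot be told apart from an effect on the iR4 or knockout difference. The labels give neither dose nor time, and they do not say whether replicates were separate cultures, so p-values measure only the spread between libraries, which may be technical. All cells are of 1 line, and the labels do not say whether each knockout is a clone or a pool.

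ERK is the last kinase of a cascade that runs from growth factor receptors through RAS and RAF to MEK. Active ERK switches on genes that then damp the same pathway, so their transcripts are widely used as a readout of its output in squamous and other epithelial cells. Sprouty (SPRY) and SPRED proteins act at and around RAS and RAF. The DUSP phosphatases described here remove phosphate from ERK itself. ETV4 and ETV5 are ETS-family transcription factors whose genes are induced downstream of ERK, often through fibroblast growth factor receptors.

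Total counts ran from 16041474 to 27937636 per library. The KO_2 libraries with an inhibitor held 21355791 to 27937636 counts, against 17525228 to 17673227 for the R4KO_2 libraries. The targeted gene REXO4, on chromosome 9, averaged 18.9 ± 0.441 CPM in KO_2 cells with BX-795, 17.9 ± 1.53 in KO_2 cells with H-151, 6.30 ± 1.17 in R4KO_2 cells, 9.39 ± 0.341 in R4KO_1 cells and 73.9 ± 3.19 in Ctrl cells (SD, n = 3 each; CPM is the count over the TMM-scaled library size). In the second experiment it averaged 91.6 ± 2.28 CPM in H151_iR4 cells, 61.4 ± 2.88 in iR4 cells and 96.2 ± 3.53 in Vehicle cells. All 9 squamous markers were present, summing to between 1946 and 4314 CPM per library. The 4 immune markers summed to at most 0.238 CPM, the 3 endothelial markers to at most 2.05 CPM, and of 4 fibroblast markers 1 was above 1 CPM, COL1A1. COL1A1 averaged 24.3 CPM in H151_iR4, 35.3 in iR4 and 22.3 in Vehicle cells, and between 28.9 and 46.2 CPM in the knockout groups, against 21.4 CPM in Ctrl cells. Of the 9 squamous markers 1 was higher and 7 lower in H151_iR4 than in iR4 cells, 5 higher and 4 lower in iR4 than in Vehicle cells, and 2 higher and 6 lower with BX-795 and 1 higher and 8 lower with H-151 than in R4KO_2 cells. Against Ctrl cells, 9 of 9 were lower with each inhibitor, 3 were higher and 5 lower in R4KO_2 cells, and 3 higher and 6 lower in R4KO_1 cells. The part of these markers in the results was not tested.

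Some libraries stood apart. Replicates 1 and 3 of R4KO_1 differed by a chi-square of 10.4 per degree of freedom over genes, where the other same-group pairs gave 1.66 to 4.89. Replicate 3 was the highest R4KO_1 library for 9 of the 10 genes, and replicate 1 the lowest for all 10. Over the 10 genes, the median SD was 41.2% of the mean in R4KO_1 cells and between 3.60% and 15.4% in the other 7 groups. The inhibitor-treated KO_2 libraries also carried a transcript that R4KO_2 cells nearly lacked. PXDN, which encodes a peroxidase of the extracellular matrix, averaged 12.5 CPM with BX-795 and 10.9 CPM with H-151, against 0.140 CPM in R4KO_2 cells, while R4KO_1 cells had 8.04 CPM and Ctrl cells 0.0391 CPM. SLC12A3, which encodes a sodium-chloride cotransporter, averaged 14.8 CPM with BX-795 and 25.0 CPM with H-151, against 0.262 CPM in R4KO_2 cells, with 7.90 CPM in R4KO_1 cells and 0.214 CPM in Ctrl cells. SLC12A3 was not confined to these libraries: it averaged 9.41 CPM in H151_iR4, 2.89 in iR4 and 6.90 in Vehicle cells. PXDN averaged 0.748 CPM in H151_iR4, 0.643 in iR4 and 0.961 in Vehicle cells. The part of the PXDN and SLC12A3 differences in the inhibitor results was not tested beyond setting the same libraries against R4KO_1 cells, which is given beside those results.

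RefSeq promoter windows on GRCh38.p14 were at hand for 6 of the 10 genes, SPRY1, SPRY2, SPRY4, SPRED1, SPRED2 and DUSP6, in 10 windows of 250 bases before a transcript start. Motifs of factors that ERK signals through were searched in them on both strands. The ETS core CCGGAA was found in 1 of 3 SPRY2 windows and 1 of 2 SPRY1 windows and in no SPRY4, SPRED1, SPRED2 or DUSP6 window, where 14.5% of all 35116 windows held it. The AP-1 motif TGANTCA and the cyclic AMP response element TGACGTCA were found in no window of these genes, where 6.57% and 1.65% of all windows held them. None of the 3 motifs holds another. No match says only that these letters are not in the window. The 150 bases next to the start are printed 5′ to 3′ for SPRY4 and DUSP6, which moved most with iR4 or H-151 among the genes with a window. The SPRY2 and SPRY1 windows that hold the ETS core (capitals) are printed too. In the second experiment SPRY2 moved with the first pair and SPRY1 did not. With H-151 against R4KO_2 cells both were lower, SPRY2 at -0.64 and SPRY1 at -0.83 on the log2 scale.
SPRY4, chr5:142324248-142324397, minus strand: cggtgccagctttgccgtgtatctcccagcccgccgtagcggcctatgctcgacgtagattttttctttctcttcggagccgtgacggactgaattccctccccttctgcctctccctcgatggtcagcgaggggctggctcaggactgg
DUSP6, chr12:89352502-89352651, minus strand: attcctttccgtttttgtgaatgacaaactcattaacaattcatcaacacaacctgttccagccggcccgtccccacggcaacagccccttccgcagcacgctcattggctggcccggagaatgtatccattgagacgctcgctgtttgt
SPRY2, chr13:80341127-80341276, minus strand: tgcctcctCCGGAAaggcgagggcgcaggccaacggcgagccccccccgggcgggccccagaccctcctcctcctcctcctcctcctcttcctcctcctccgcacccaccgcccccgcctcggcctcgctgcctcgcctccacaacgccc
SPRY1, chr4:123398236-123398385, plus strand: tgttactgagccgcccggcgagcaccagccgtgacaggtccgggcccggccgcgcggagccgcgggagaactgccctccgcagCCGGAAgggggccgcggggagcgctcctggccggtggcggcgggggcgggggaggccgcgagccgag
The core begins 142 bases before the start in SPRY2 and 67 bases before it in SPRY1.

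The largest changes were in the second experiment, which compared iR4 with Vehicle cells and H151_iR4 with iR4 cells. In iR4 cells 9 of the 10 genes were higher and none lower than in Vehicle cells (edgeR quasi-likelihood test, adjusted p under 0.05), where 71.9% of 14000 genes tested passed in either direction. Of the 9, 6 were higher by 2-fold or more: SPRY4, DUSP4, DUSP5, DUSP6, SPRY2 and ETV5. Across all genes 11.5% passed at 2-fold or more. SPRY1 was the gene that did not pass. In bulk RNA, fewer cells that express a gene and less of its RNA per cell cannot be told apart. The median log2 fold change was 1.77 over the 10 genes and 0.02 over all genes tested.

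With H-151, the same 9 genes were lower in H151_iR4 than in iR4 cells and none was higher, where 71.4% of all genes passed. The same 6 genes were lower by 2-fold or more, where 12.3% of all genes were. The median log2 fold change was -1.39 over the 10 genes and -0.01 over all genes. These comparisons share the iR4 libraries, so a rise in the first and a fall in the second are not independent. Set directly against Vehicle cells, H151_iR4 cells had 3 of the 10 genes higher, SPRY4, DUSP4 and ETV5, and none lower, where 18.3% of all genes passed. None of the 10 passed at 2-fold or more, where 0.821% of all genes did. In a fit of all 24 libraries DUSP4 alone of the 3 passed.

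**Figure D1:**
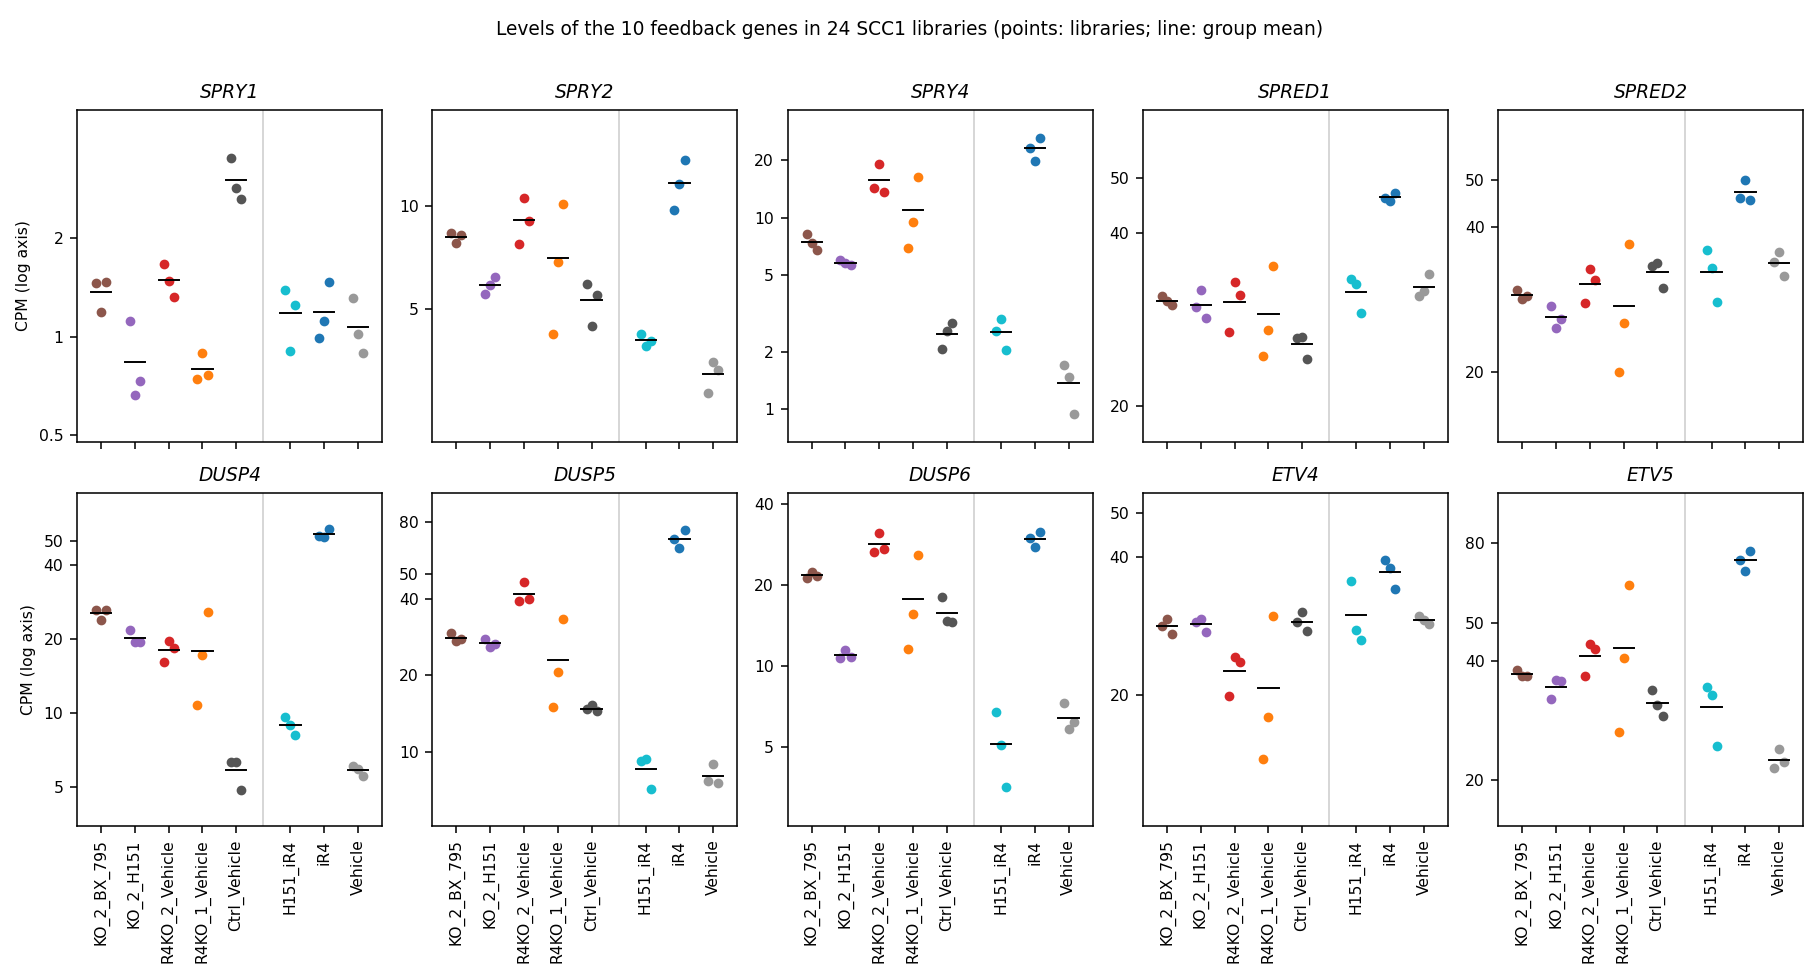
Levels of the 10 genes in CPM on a log axis, 1 panel a gene, with a point for each of the 24 libraries and a line at each group mean (n = 3); the grey line separates the 2 experiments. The iR4 libraries lie above the H151_iR4 and Vehicle libraries for SPRY2, SPRY4, SPRED1, SPRED2, DUSP4, DUSP5, DUSP6 and ETV5, and the R4KO_1 libraries spread widely.

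The knockout comparison asked what loss of REXO4 does to SCC1 cells. In R4KO_2 cells 7 of the 10 genes were higher than in Ctrl cells (SPRY4, DUSP4, DUSP5, DUSP6, SPRY2, ETV5 and SPRED1) and 2 were lower (SPRY1 and ETV4), where 66.2% of 14348 genes tested passed. At 2-fold or more 3 were higher (SPRY4, DUSP4 and DUSP5) and 1 lower (SPRY1), where 11.4% of all genes passed. In R4KO_1 cells 4 were higher than in Ctrl cells (SPRY4, DUSP4, DUSP5 and ETV5) and the same 2 lower, where 64.5% of all genes passed. At 2-fold or more 2 were higher (SPRY4 and DUSP4) and 1 lower (SPRY1), where 10.1% of all genes passed. The R4KO_1 count differed between leave-outs: without replicate 1, SPRY2 (0.68), DUSP6 (0.40) and SPRED1 (0.29) also passed, giving 7 higher and 2 lower, where 61.4% of all genes passed in that fit. Without replicate 3 it was 3 higher and 3 lower, where 62.6% passed. The median log2 fold change of the 10 genes was 0.59 in R4KO_2 cells and 0.30 in R4KO_1 cells, against 0.02 over all genes in each. Both comparisons use the same Ctrl libraries.

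The knockouts differed from each other. In R4KO_2 cells 4 genes were higher than in R4KO_1 cells (SPRY1, DUSP5, DUSP6 and SPRY4) and none lower, where 31.6% of all genes passed. None of the 10 passed at 2-fold or more, where 2.28% of all genes did. This count rested on single R4KO_1 libraries. Without R4KO_1 replicate 3, all 10 genes were higher in R4KO_2 than in R4KO_1 cells, where 32% of all genes passed in either direction in that fit. Without R4KO_1 replicate 1, 3 were higher and 1 lower, ETV5 (-0.32, edgeR adjusted p = 0.0196), where 28.3% of all genes passed. Without replicate 3 the R4KO_1 effect over Ctrl on SPRY4 was 1.74 and on DUSP4 1.27 on the log2 scale, both still passing. DUSP5 was at 0.27 (edgeR adjusted p = 0.0219), ETV5 at 0.11 and no longer passing (adjusted p = 0.364), SPRED2 at -0.50 and now passing (adjusted p = 7.09e-06), and ETV4 at -0.83 (adjusted p = 2.17e-09).

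The inhibitor comparison asked what H-151 or BX-795 does to KO_2 cells. With H-151, 5 of the 10 genes were lower than in R4KO_2 cells (SPRY4, DUSP6, SPRY1, DUSP5 and SPRY2) and 1 was higher (ETV4), where 72.7% of all genes passed. Only SPRY4 and DUSP6 among the 10 were lower by 2-fold or more, where 15.3% of all genes passed at that size. With BX-795, 3 genes were lower than in R4KO_2 cells (SPRY4, DUSP5 and DUSP6) and 1 was higher (DUSP4), where 73.6% of all genes passed. SPRY4 was the gene lower by 2-fold or more, where 15.2% of all genes passed. In both inhibitor comparisons the share of the 10 genes that passed was below that of all genes in the fit of 15 libraries. With only the 2 groups fitted, ETV5 (-0.27) and SPRED2 (-0.24) also passed with H-151, and ETV4 (0.31) and ETV5 (-0.16) with BX-795. The same genes were gained with no filter. The share of all genes that passed was not set beside those fits. Set against R4KO_1 cells instead, a reference chosen after the data were seen, SPRY4 and DUSP6 were still lower with H-151, at -0.93 and -0.70 on the log2 scale. ETV4 was still higher with H-151, at 0.45, and with BX-795 it now passed at 0.43 (edgeR adjusted p = 0.01). DUSP5 was then at 0.20 with H-151 and 0.28 with BX-795, and DUSP6 at 0.28 with BX-795, all turned in direction and none passing. SPRY1 was at 0.050 with H-151 and, now passing, at 0.77 with BX-795.

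Between the inhibitors, BX-795 left DUSP6 higher than H-151 did, by 0.99 ± 0.16 on the log2 scale (SE; edgeR adjusted p = 0.000413), and SPRY1 higher by 0.72 ± 0.22 (adjusted p = 0.0466). These were 2 of the 10 genes, where 9.67% of all genes passed, and none passed at 2-fold or more, where 0.467% of all genes did. SPRY1 lost its call without any single library of BX-795 or without H-151 replicate 2 or 3 (0.59 to 0.79, adjusted p from 0.0526 to 0.179). DESeq2 lost the SPRY1 call too (adjusted p = 0.135), and the doses are not given. Against Ctrl cells, BX-795 cells had 6 genes higher and 1 lower, where 55.7% of all genes passed, and 2 higher and 1 lower by 2-fold or more, where 6.82% did. Without Ctrl replicate 2, BX-795 cells had 3 higher and 1 lower, where 52.3% of all genes passed in that fit. H-151 cells had 3 higher and 3 lower than Ctrl cells, where 53% of all genes passed, and 2 higher and 1 lower by 2-fold or more, where 5.99% did. Without Ctrl replicate 1, DUSP6 (-0.43, edgeR adjusted p = 0.0936) and SPRED2 (-0.30, adjusted p = 0.0958) lost their H-151 calls, leaving 3 higher and 1 lower. In that fit 47% of all genes passed. SPRED2 (-0.32 with all libraries, adjusted p = 0.0346) also lost its call without Ctrl replicate 2 or H-151 replicate 2 (-0.29 each) or H-151 replicate 3 (-0.31), and with DESeq2 (adjusted p = 0.111). SPRY4 and DUSP4 were the genes higher by 2-fold or more under either inhibitor, and SPRY1 the gene lower.

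**Figure D2:**
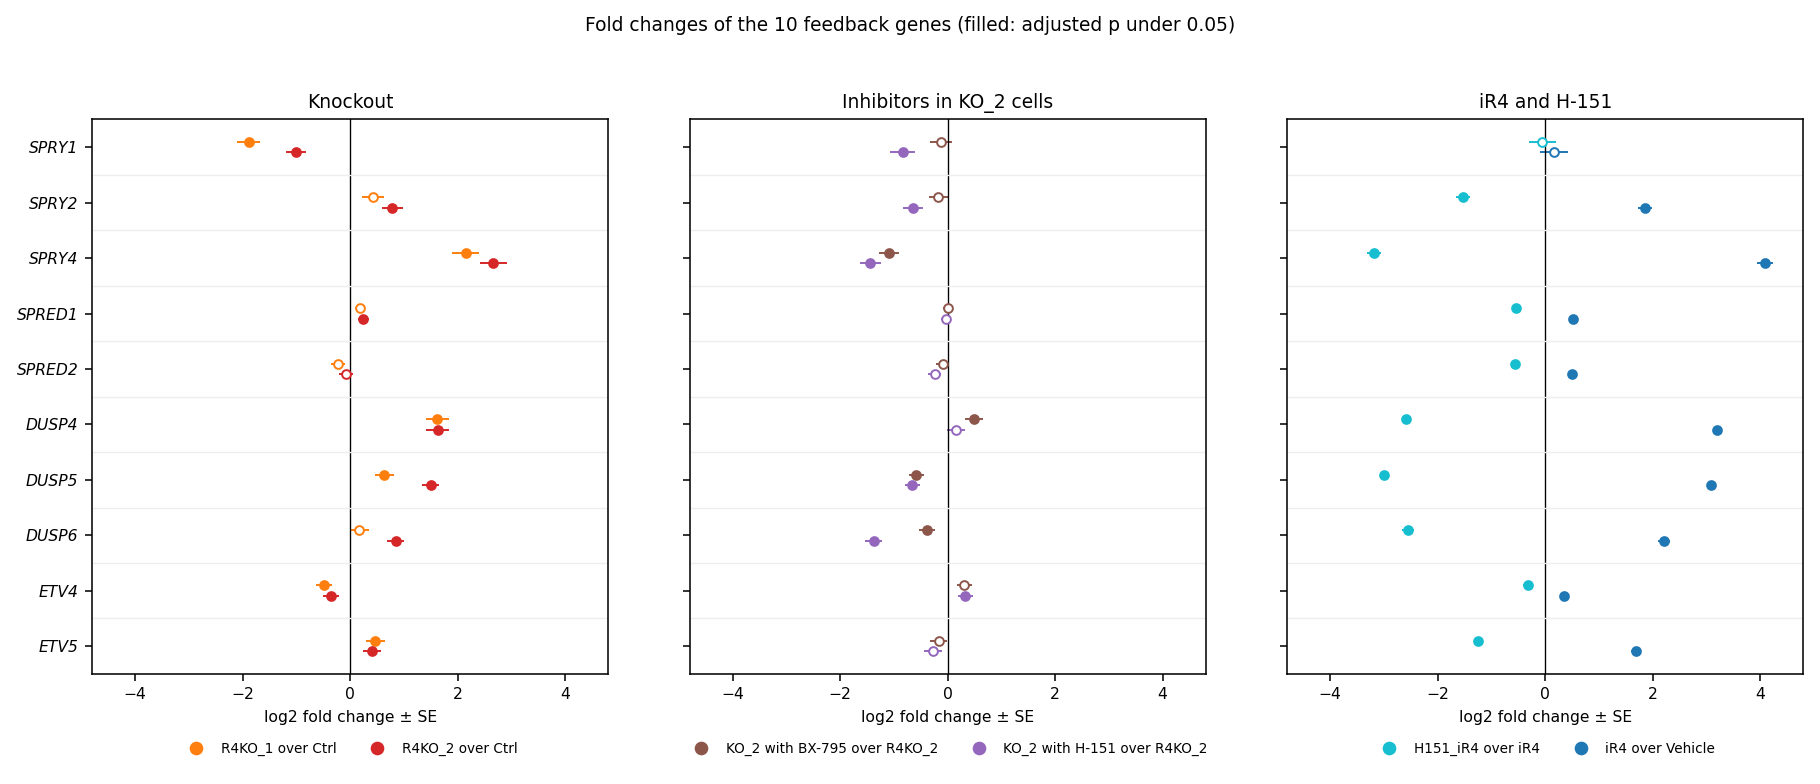
Log2 fold changes with SE for the 10 genes in 6 comparisons (left, each knockout over Ctrl; middle, each inhibitor in KO_2 cells over R4KO_2; right, H151_iR4 over iR4 and iR4 over Vehicle); filled points passed at an adjusted p under 0.05. SPRY4 reached 4.09 in iR4 cells and 2.66 in R4KO_2 cells, while SPRY1 fell in the knockouts and stayed near 0 on the right.

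SPRY4 (ENSG00000187678, chromosome 5, 142310427 to 142326455, minus strand) encodes a Sprouty protein that restrains receptor signalling upstream of ERK, and it had the widest range of the 10 genes. It was at 23.2, 19.8 and 26.2 CPM in iR4 cells, against 1.70, 1.47 and 0.938 CPM in Vehicle cells, a log2 fold change of 4.09 ± 0.15 (SE; edgeR adjusted p = 9.2e-18). The groups did not overlap, and the lowest iR4 library was far above the highest Vehicle library. In H151_iR4 cells it was at 2.57, 2.95 and 2.04 CPM, a log2 fold change of -3.19 ± 0.13 against iR4 cells. H151_iR4 cells remained above Vehicle cells by 0.90 ± 0.24 (adjusted p = 0.00997), a call that was lost without H151_iR4 replicate 2 (0.75, adjusted p = 0.0853) or Vehicle replicate 3 (0.68, adjusted p = 0.08). Every H151_iR4 library was still above every Vehicle library.

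In the knockout experiment SPRY4 was at 14.3, 19.1 and 13.6 CPM in R4KO_2 cells and at 6.97, 9.46 and 16.4 CPM in R4KO_1 cells, against 2.05, 2.55 and 2.81 CPM in Ctrl cells. Both knockouts lay wholly above Ctrl cells, with log2 fold changes of 2.66 ± 0.24 in R4KO_2 cells (edgeR adjusted p = 3.07e-09) and 2.15 ± 0.26 in R4KO_1 cells (adjusted p = 2.16e-07). SPRY4 was higher in R4KO_2 than in R4KO_1 cells by 0.52 ± 0.18 (adjusted p = 0.0358), though the libraries overlapped. That call was lost without R4KO_1 replicate 1 (0.28) or 2 (0.42) or R4KO_2 replicate 2 (0.35). It was also lost with DESeq2 (adjusted p = 0.142) and with only the 2 groups fitted (edgeR adjusted p = 0.156). With BX-795 the gene was at 8.21, 7.34 and 6.80 CPM and with H-151 at 5.99, 5.79 and 5.68 CPM, all below the R4KO_2 libraries and all above the Ctrl libraries. The log2 fold changes against R4KO_2 cells were -1.09 ± 0.19 with BX-795 (adjusted p = 2.09e-05) and -1.44 ± 0.20 with H-151 (adjusted p = 8.51e-07). Against R4KO_1 cells they were -0.57 with BX-795 (adjusted p = 0.0142) and -0.93 with H-151 (adjusted p = 0.000434). SPRY4-AS1, an antisense gene that overlaps SPRY4 without sharing exonic bases, had 138 counts over all libraries against 4284 for SPRY4.

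SPRY2 (ENSG00000136158, chromosome 13, 80335976 to 80340951, minus strand) is another Sprouty gene with a like role. It was at 9.73, 11.6 and 13.7 CPM in iR4 cells, against 2.84, 3.50 and 3.31 CPM in Vehicle cells, a log2 fold change of 1.86 ± 0.13 (edgeR adjusted p = 2.78e-12). H151_iR4 cells had 4.21, 3.90 and 4.03 CPM, a log2 fold change of -1.53 ± 0.13 against iR4 cells. These lay just above all Vehicle libraries, but the difference from Vehicle, 0.32 ± 0.16, did not pass (adjusted p = 0.189). In R4KO_2 cells SPRY2 was at 7.72, 10.5 and 9.01 CPM and in R4KO_1 cells at 4.23, 6.83 and 10.1 CPM, against 5.92, 4.47 and 5.50 CPM in Ctrl cells. Only the R4KO_2 libraries lay wholly above Ctrl, with a log2 fold change of 0.78 ± 0.20 (adjusted p = 0.00143), while R4KO_1 gave 0.42 ± 0.20 (adjusted p = 0.0784). R4KO_1 passed without its replicate 1 (0.68) and was at 0.07 without its replicate 3. BX-795 libraries had 8.33, 7.77 and 8.23 CPM and H-151 libraries 5.52, 5.89 and 6.18 CPM. SPRY2 was lower with H-151 than in R4KO_2 cells (-0.64 ± 0.18, adjusted p = 0.00335), and BX-795 gave -0.17 ± 0.17 (adjusted p = 0.374). Against R4KO_1 cells the H-151 difference was -0.28 and no longer passed (adjusted p = 0.195).

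SPRY1 (ENSG00000164056, chromosome 4, 123396795 to 123403760, plus strand), also a Sprouty gene, went the other way in the knockouts. It was at 1.67, 1.47 and 1.32 CPM in R4KO_2 cells and at 0.739, 0.893 and 0.762 CPM in R4KO_1 cells, against 3.52, 2.84 and 2.63 CPM in Ctrl cells. No knockout library reached the lowest Ctrl library. The log2 fold changes were -1.01 ± 0.19 in R4KO_2 cells (edgeR adjusted p = 8.86e-05) and -1.89 ± 0.22 in R4KO_1 cells (adjusted p = 1.24e-07), and R4KO_2 cells were above R4KO_1 cells by 0.89 ± 0.25 (adjusted p = 0.00842). In the second experiment it was at 1.38, 0.904 and 1.25 CPM in H151_iR4 cells, 0.987, 1.11 and 1.46 CPM in iR4 cells and 1.31, 1.01 and 0.889 CPM in Vehicle cells. These 3 groups overlapped, and iR4 gave 0.17 ± 0.25 (adjusted p = 0.57). KO_2 cells had 1.46, 1.19 and 1.46 CPM with BX-795 and 1.11, 0.665 and 0.734 CPM with H-151, all below the Ctrl libraries. The gene had 14 to 60 counts per library, so counting error is large for it.

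SPRED1 (ENSG00000166068, chromosome 15, 38252326 to 38357249, plus strand) encodes a membrane-bound protein that brings neurofibromin to RAS, and SPRED2 (ENSG00000198369, chromosome 2, 65310851 to 65432637, minus strand) its close relative. Neither changed by 2-fold or more in any comparison. SPRED1 averaged 31.6 ± 2.31 CPM in H151_iR4 cells, 46.2 ± 0.677 in iR4 cells and 32.2 ± 1.46 in Vehicle cells (SD, n = 3 each), a rise of 0.52 ± 0.05 on the log2 scale in iR4 cells (SE; edgeR adjusted p = 5.06e-09). SPRED2 averaged 32.2 ± 3.99 CPM in H151_iR4 cells, 47.2 ± 2.50 in iR4 cells and 33.7 ± 1.97 in Vehicle cells, a rise of 0.49 ± 0.07 (adjusted p = 3.44e-07). H-151 gave -0.55 ± 0.06 for SPRED1 and -0.56 ± 0.07 for SPRED2 against iR4 cells. For both genes every iR4 library was above every library of the other groups.

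In the knockout experiment SPRED1 averaged 30.3 ± 3.09 CPM in R4KO_2 cells and 28.9 ± 5.53 in R4KO_1 cells, against 25.6 ± 1.25 in Ctrl cells. The R4KO_2 difference, 0.24 ± 0.10, passed narrowly (edgeR adjusted p = 0.0309). It was lost without Ctrl replicate 2 (0.26) or 3 (0.20) or R4KO_2 replicate 2 (0.18) or 3 (0.22), with adjusted p from 0.0513 to 0.144. DESeq2, no filter and a fit of only the 2 groups kept it. The R4KO_1 difference, 0.18, did not pass (adjusted p = 0.114), but passed without R4KO_1 replicate 1 (0.29, adjusted p = 0.0075). SPRED2 averaged 30.5 ± 2.53 CPM in R4KO_2 cells and 27.4 ± 8.60 in R4KO_1 cells, against 32.3 ± 2.01 in Ctrl cells, and passed in neither with all libraries. With BX-795 SPRED1 averaged 30.5 ± 0.582 CPM and SPRED2 28.9 ± 0.612, and with H-151 they averaged 30.0 ± 1.70 and 26.0 ± 1.37 CPM. Neither gene passed with either inhibitor against R4KO_2 cells in the fit of 15 libraries. SPRED2 passed as lower with H-151 when only the 2 groups were fitted (-0.24, edgeR adjusted p = 0.0022) or with no filter (-0.23).

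DUSP6 (ENSG00000139318, chromosome 12, 89347232 to 89353271, minus strand) encodes a cytoplasmic phosphatase specific for ERK. It was at 30.0, 27.6 and 31.4 CPM in iR4 cells, against 7.28, 5.84 and 6.22 CPM in Vehicle cells, a log2 fold change of 2.21 ± 0.11 (edgeR adjusted p = 1.86e-15). In H151_iR4 cells it was at 6.78, 5.09 and 3.57 CPM, -2.55 ± 0.11 against iR4 cells, and these libraries overlapped with Vehicle cells (-0.34 ± 0.15, adjusted p = 0.127). Without H151_iR4 replicate 1 that difference was -0.55 and passed (adjusted p = 0.0123). In R4KO_2 cells DUSP6 was at 26.5, 31.3 and 27.2 CPM and in R4KO_1 cells at 11.6, 15.6 and 26.0 CPM, against 18.0, 14.7 and 14.6 CPM in Ctrl cells. The R4KO_2 libraries stood wholly above Ctrl and the R4KO_1 libraries straddled it, with log2 fold changes of 0.85 ± 0.16 (adjusted p = 9.86e-05) and 0.17 ± 0.17 (adjusted p = 0.4). Without R4KO_1 replicate 1 the second was 0.40 and passed (adjusted p = 0.00981), and without replicate 3 it was -0.21 and did not (adjusted p = 0.103).

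The inhibitors parted on DUSP6. It was at 21.3, 22.5 and 21.7 CPM with BX-795 and at 10.7, 11.5 and 10.8 CPM with H-151, so the H-151 libraries lay below every Ctrl library and the BX-795 libraries above them. Against R4KO_2 cells the log2 fold change was -1.38 ± 0.16 with H-151 (edgeR adjusted p = 1.21e-07) and -0.39 ± 0.15 with BX-795 (adjusted p = 0.0229). The BX-795 call was lost without BX-795 replicate 1 (-0.37) or 3 (-0.38) or R4KO_2 replicate 2 (-0.31), or with DESeq2 (adjusted p = 0.123). Against Ctrl cells it was -0.53 ± 0.18 with H-151 (adjusted p = 0.0164) and 0.46 ± 0.16 with BX-795 (adjusted p = 0.0224). The H-151 call was lost without Ctrl replicate 1 (-0.43), and the BX-795 call without Ctrl replicate 2 or 3 (0.40 each) or BX-795 replicate 2 (0.43). DESeq2 lost the BX-795 call as well (adjusted p = 0.0854). AC024909.2, an antisense gene, shares 1875 exonic bases with DUSP6, and no source used here gives the strand setting of the counting, so reads of the pair may not be told apart. AC024909.2 was not analysed here.

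DUSP5 (ENSG00000138166, chromosome 10, 110497838 to 110511544, plus strand) encodes a nuclear phosphatase of ERK. It was at 68.3, 63.2 and 74.0 CPM in iR4 cells, against 7.71, 9.03 and 7.56 CPM in Vehicle cells, a log2 fold change of 3.08 ± 0.08 (edgeR adjusted p = 1.83e-20). H151_iR4 cells had 9.21, 9.42 and 7.20 CPM, which overlapped with Vehicle cells (0.09 ± 0.12, adjusted p = 0.651) and was -2.99 ± 0.08 against iR4 cells. In R4KO_2 cells it was at 39.3, 46.4 and 39.8 CPM and in R4KO_1 cells at 15.1, 20.6 and 33.3 CPM, against 14.8, 15.3 and 14.5 CPM in Ctrl cells. R4KO_2 stood wholly above R4KO_1, by 0.86 ± 0.15 (adjusted p = 0.000118), and above Ctrl by 1.50 ± 0.16 (adjusted p = 3.29e-08). R4KO_1 was above Ctrl by 0.64 ± 0.17 (adjusted p = 0.00263), with its lowest library inside the Ctrl range. With BX-795 DUSP5 was at 29.2, 27.4 and 27.8 CPM and with H-151 at 27.8, 25.8 and 26.5 CPM, all below the R4KO_2 libraries and above the Ctrl libraries. The changes against R4KO_2 cells were -0.58 ± 0.14 with BX-795 (adjusted p = 0.000756) and -0.66 ± 0.14 with H-151 (adjusted p = 0.00025).

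DUSP4 (ENSG00000120875, chromosome 8, minus strand) encodes a nuclear phosphatase of ERK and related MAP kinases. It was at 52.5, 52.1 and 56.1 CPM in iR4 cells, against 6.07, 5.89 and 5.53 CPM in Vehicle cells, a log2 fold change of 3.20 ± 0.07 (edgeR adjusted p = 8.4e-22). H151_iR4 cells had 9.61, 8.95 and 8.11 CPM, -2.60 ± 0.07 against iR4 cells, and stayed wholly above Vehicle cells by 0.61 ± 0.10 (adjusted p = 8.9e-05). In the knockouts it was at 16.1, 19.5 and 18.4 CPM in R4KO_2 cells and at 10.7, 17.2 and 25.7 CPM in R4KO_1 cells, against 6.33, 6.32 and 4.86 CPM in Ctrl cells. Both knockouts lay wholly above Ctrl, by 1.63 ± 0.21 in R4KO_2 cells (adjusted p = 6.9e-07) and 1.62 ± 0.21 in R4KO_1 cells (adjusted p = 8.26e-07). DUSP4 did not fall with the inhibitors. It was at 26.2, 23.9 and 26.2 CPM with BX-795, wholly above R4KO_2 cells by 0.49 ± 0.16 (adjusted p = 0.00957), and at 21.7, 19.5 and 19.5 CPM with H-151, where the difference of 0.16 ± 0.17 did not pass (adjusted p = 0.408). DESeq2 did not call the BX-795 difference (adjusted p = 0.0618).

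ETV5 (ENSG00000244405, chromosome 3, 186046308 to 186110318, minus strand) encodes an ETS transcription factor. It was at 72.3, 67.7 and 76.3 CPM in iR4 cells, against 21.4, 24 and 22.2 CPM in Vehicle cells, a log2 fold change of 1.68 ± 0.08 (edgeR adjusted p = 8.52e-16). H151_iR4 cells had 34.4, 32.9 and 24.5 CPM, -1.24 ± 0.08 against iR4 cells, and lay above Vehicle cells by 0.44 ± 0.09 (adjusted p = 0.000858). In R4KO_2 cells it was at 36.7, 44.4 and 43.0 CPM and in R4KO_1 cells at 26.6, 40.8 and 62.4 CPM, against 33.8, 31.1 and 29.1 CPM in Ctrl cells. The R4KO_2 libraries lay above Ctrl by 0.40 ± 0.17 (adjusted p = 0.0444), and R4KO_1 gave 0.47 ± 0.17 (adjusted p = 0.0204) with overlapping libraries. The R4KO_2 call was lost without any single Ctrl library or without R4KO_2 replicate 2 or 3 (0.35 to 0.46, adjusted p from 0.0533 to 0.129). The R4KO_1 call was lost without Ctrl replicate 2 (0.46, adjusted p = 0.0595) or 3 (0.42, adjusted p = 0.0716), or without R4KO_1 replicate 3. With DESeq2 both calls were lost (adjusted p = 0.12 for R4KO_2 and 0.067 for R4KO_1). With only the 2 groups fitted the R4KO_1 call was lost too (edgeR adjusted p = 0.076), while the R4KO_2 call was kept. With no filter both calls were kept. KO_2 cells had 38.0, 36.7 and 36.7 CPM with BX-795 and 32.1, 35.8 and 35.6 CPM with H-151. Neither differed from R4KO_2 cells by the test in the fit of 15 libraries. With only the 2 groups fitted both passed as lower, at -0.16 with BX-795 (edgeR adjusted p = 0.0126) and -0.27 with H-151 (adjusted p = 0.000742). Both also passed with no filter. ETV5 shares 164 exonic bases with DGKG on the same strand, which had 338 counts over all libraries against 19106 for ETV5.

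ETV4 (ENSG00000175832, chromosome 17, 43527844 to 43579620, minus strand), its close relative, moved less. It averaged 29.9 ± 4.94 CPM in H151_iR4 cells, 37.2 ± 2.76 in iR4 cells and 29.1 ± 0.578 in Vehicle cells (SD, n = 3 each), higher in iR4 cells by 0.35 ± 0.08 (SE; edgeR adjusted p = 0.000199) with a log2 fold change of -0.33 ± 0.08 in H151_iR4 over iR4 cells (adjusted p = 0.000512). In the knockouts it was lower, with 22.6 ± 2.32 CPM in R4KO_2 cells and 20.7 ± 8.0 in R4KO_1 cells, against 29 ± 1.37 in Ctrl cells. The log2 fold changes were -0.36 ± 0.15 in R4KO_2 cells (adjusted p = 0.0356) and -0.48 ± 0.15 in R4KO_1 cells (adjusted p = 0.00709). The R4KO_2 call was lost without Ctrl replicate 1 (-0.36) or 2 (-0.33) or R4KO_2 replicate 1 (-0.27) or 3 (-0.39), or with DESeq2 (adjusted p = 0.113). It was kept with only the 2 groups fitted and with no filter. The R4KO_1 value rested in size on single libraries: it was -0.28 without R4KO_1 replicate 1 (adjusted p = 0.0409), -0.39 without replicate 2 (adjusted p = 0.0456) and -0.83 without replicate 3, passing each time. ETV4 averaged 28.3 ± 1.08 CPM with BX-795 and 28.5 ± 0.999 with H-151. H-151 gave 0.32 ± 0.14 against R4KO_2 cells (adjusted p = 0.0441), a call lost without any single H-151 library or R4KO_2 replicate 1 or 3 (0.24 to 0.36). DESeq2 did not call it (adjusted p = 0.136). BX-795 gave 0.31 ± 0.14 against R4KO_2 cells (edgeR adjusted p = 0.051), and BX-795 over H-151 was -0.01 (adjusted p = 0.973). The first of these passed with only the 2 groups fitted (0.31, edgeR adjusted p = 0.000141). DHX8, on the other strand, shares 68 exonic bases with ETV4 and had 43271 counts against 13645 for ETV4.

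Per kilobase of exon, the order of the 10 genes differed between the states. In iR4 cells DUSP5 was the most abundant at 26.2 ± 2.1 CPM per kb, followed by ETV5 at 12.4 ± 0.74, ETV4 at 10.3 ± 0.76 and SPRED2 at 9.16 ± 0.48 (SD, n = 3 each). In Vehicle cells ETV4 led at 8.07 ± 0.16 CPM per kb, followed by SPRED2 at 6.54 ± 0.38, SPRED1 at 3.90 ± 0.18 and ETV5 at 3.88 ± 0.23. SPRY4 was the least abundant of the 10 genes in Vehicle cells, at 0.208 ± 0.059 CPM per kb, and SPRY1 in iR4 cells, at 0.300 ± 0.062.

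Each of the genes other than SPRY1 had its highest group mean in iR4 cells, and SPRY1 had its highest in Ctrl cells. The iR4 libraries overlapped with the next group for SPRY2 and DUSP6 (R4KO_2) and for ETV4 (H151_iR4). For SPRY4 the groups ran, low to high, from Vehicle through Ctrl, H151_iR4, H-151, BX-795, R4KO_1 and R4KO_2 to iR4, a 16.8-fold range of group means. Neighbours in that order overlapped between Ctrl and H151_iR4, between BX-795 and R4KO_1, and between R4KO_1 and R4KO_2. The range was 9.19-fold for DUSP4, 8.46-fold for DUSP5, 5.76-fold for DUSP6, 3.76-fold for SPRY1, 3.62-fold for SPRY2 and 3.20-fold for ETV5. It was under 2-fold for SPRED1, SPRED2 and ETV4. For DUSP6 the lowest group was H151_iR4, which overlapped with Vehicle. For SPRED2 it was KO_2 cells with H-151, which overlapped with R4KO_1.

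The iR4 effect was set against each knockout effect in a fit of all 24 libraries, with each effect taken from its own control. The iR4 effect was the higher for all 10 genes against R4KO_1, where 35% of 14585 genes tested passed in either direction, and by 2-fold or more for 7, where 4.55% of all genes passed. Against R4KO_2 it was the higher for 9 genes, all but SPRED1, where 20.3% of all genes passed, and by 2-fold or more for 7, where 1.8% did. The difference of log2 fold changes against R4KO_2 was 1.59 ± 0.22 for DUSP5, 1.58 ± 0.27 for DUSP4, 1.42 ± 0.40 for SPRY4 and 1.36 ± 0.24 for DUSP6, with edgeR adjusted p from 5.11e-06 to 0.0115. The SPRY4 call was lost without Vehicle replicate 3 (1.20, adjusted p = 0.052).

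The levels behind these differences were not alike. DUSP6 averaged 29.7 CPM in iR4 and 28.3 CPM in R4KO_2 cells, but 6.44 CPM in Vehicle and 15.8 CPM in Ctrl cells, so the levels differed most between the controls. DUSP4 averaged 53.6 CPM in iR4 and 18.0 CPM in R4KO_2 cells and 5.83 CPM in Vehicle and 5.84 CPM in Ctrl cells, so the levels differed most between iR4 and R4KO_2 cells. DUSP5 and SPRY4 differed at both ends. The labels do not say whether the experiments were run together, so an experiment's conditions and its groups cannot be told apart in levels set across them.

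The effect of H-151 also differed between iR4 and KO_2 cells. It was lower in iR4 cells for 8 of the 10 genes and higher for none, where 50.7% of all genes passed, and by 2-fold or more for 4 (DUSP4, DUSP5, SPRY4 and DUSP6), where 8.7% did. DUSP4 differed most, by -2.76 ± 0.21 on the log2 scale (SE; edgeR adjusted p = 4.59e-12), since it fell with H-151 in iR4 cells and did not in KO_2 cells. DUSP5 followed at -2.34 ± 0.20 (adjusted p = 7.61e-11), SPRY4 at -1.75 ± 0.30 (adjusted p = 1.67e-05) and DUSP6 at -1.18 ± 0.25 (adjusted p = 0.000263). The KO_2 side of this contrast holds the inhibitor libraries in which PXDN was high.

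**Figure D3:**
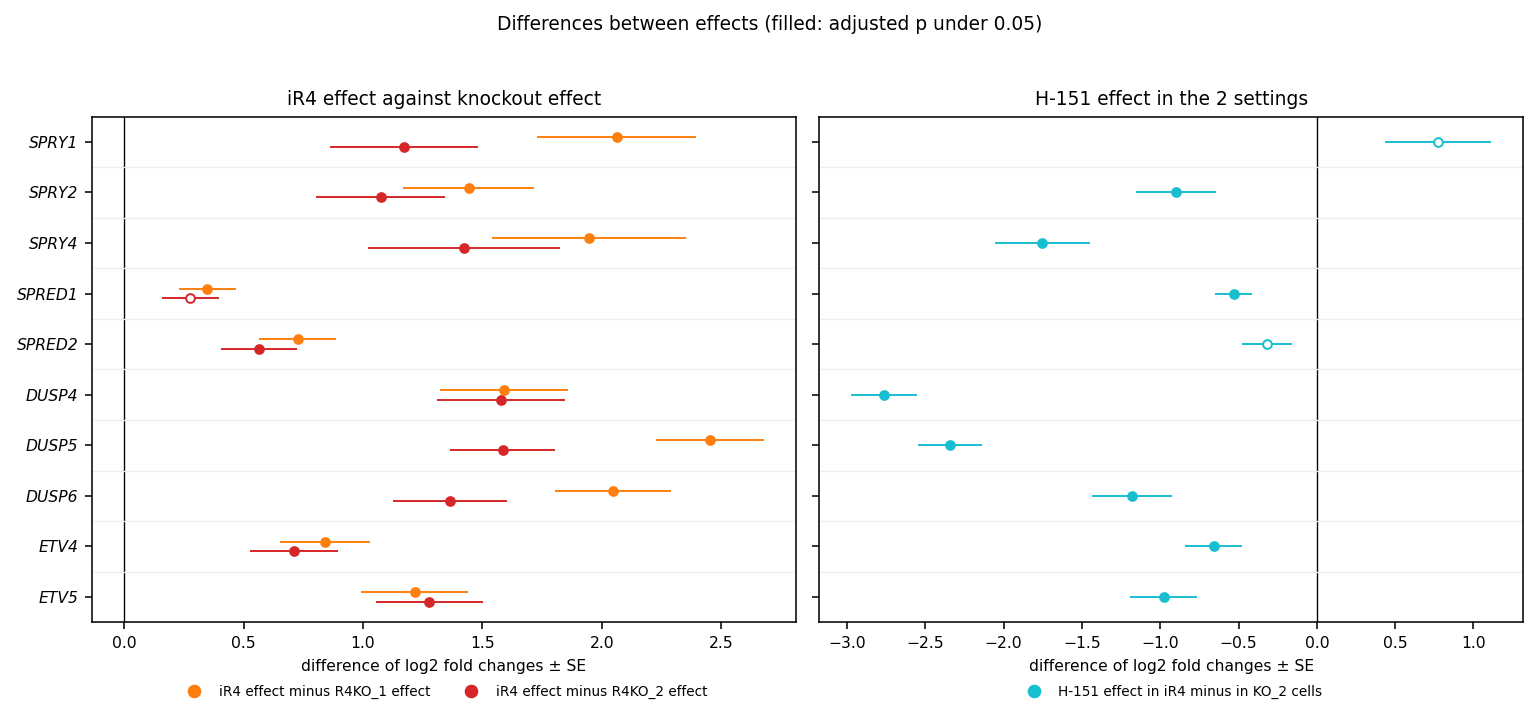
Differences between log2 fold changes with SE for the 10 genes: left, the iR4 effect minus each knockout effect; right, the H-151 effect in iR4 cells minus that in KO_2 cells; filled points passed at an adjusted p under 0.05. All points on the left lie above 0, and DUSP4 at -2.76 lies farthest below 0 on the right.

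Over the 8 group means of log2 CPM, 6 of the genes ran together. SPRY2, SPRY4, DUSP4, DUSP5, DUSP6 and ETV5, grouped after their values were seen, had Pearson r from 0.69 to 0.97 in their 15 pairs, highest for SPRY2 with DUSP5. SPRED1 and SPRED2 had r = 0.81 with each other. SPRY1 had r from -0.37 to 0.24 with the others, and ETV4 from -0.12 to 0.20 with all but the SPRED genes. ETV4 had r = 0.63 with SPRED1 and 0.73 with SPRED2. SPRED1 had r = 0.67 with DUSP4 and with ETV5, near the lowest value among the 6 genes. With the rest of the 6 it ran from 0.25 (DUSP6) to 0.50 (DUSP5). These are descriptions over 8 groups scaled together over the 24 libraries, and no test was made of them. An experiment's conditions and its groups cannot be told apart in them. Among 10938 genes of a mean log2 CPM of at least 2, the 3 most like DUSP6 were IL1B, which encodes an inflammatory cytokine (r = 0.97), FAM234B (0.97) and PJA1, which encodes a ubiquitin ligase (0.96). The 3 most like SPRY4 were BOLA1 (0.99), BBC3, which encodes the BH3-only death protein PUMA (0.99), and WIPI2, which encodes an autophagy protein (0.98). Pearson r takes no account of the size of a change. Group means ran from 6.96 CPM (Vehicle) to 13.1 (iR4) for BOLA1 and from 3.21 (Ctrl) to 18.9 (iR4) for BBC3. For WIPI2 they ran only from 118 (Ctrl) to 136 (iR4).

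The rest of the pathway was read from lists of ligands, receptors, cascade proteins, other ERK targets and other inhibitors. Their counts stand beside all genes tested, of which 37.1% were higher and 34.8% lower in iR4 over Vehicle cells, 35.1% and 36.3% in H151_iR4 over iR4 cells, 34% and 32.2% in R4KO_2 and 33% and 31.4% in R4KO_1 over Ctrl cells, and 36.4% and 37.1% with BX-795 and 35.7% and 37% with H-151 over R4KO_2 cells. Among 9 tested ligand genes, 6 were higher and none lower in iR4 than in Vehicle cells, led by HBEGF (log2 fold change 2.25 ± 0.10) and AREG (2.19 ± 0.08), both ligands of the EGF receptor. With H-151 6 were lower and 2 higher than in iR4 cells, with AREG at -2.29 ± 0.09 and HBEGF at -2.09 ± 0.10. In R4KO_2 cells 5 were higher and 2 lower than in Ctrl cells, led by HBEGF (2.19 ± 0.12) and FGF2, a fibroblast growth factor (1.43 ± 0.09). In R4KO_1 cells 3 were higher and 4 lower, with the ERBB ligand NRG1 at -1.04 ± 0.08 and FGF2 at 0.93 ± 0.09. With the inhibitors 7 were lower than in R4KO_2 cells in each case, against 2 higher with BX-795 and 1 with H-151. FGFBP1, which encodes a carrier of fibroblast growth factors, was at -2.51 ± 0.07 with BX-795 and -2.58 ± 0.07 with H-151, and FGF2 at -1.88 ± 0.09 and -1.62 ± 0.09. All named values had edgeR adjusted p of 9.69e-09 or lower.

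The receptors were mixed. Of 11, 3 were higher and 4 lower in iR4 than in Vehicle cells, with the ephrin receptor gene EPHA2 at 1.51 ± 0.05 and FGFR1 at 0.69 ± 0.06. With H-151 3 were higher and 6 lower than in iR4 cells, with EPHA2 at -1.51 ± 0.05 and the receptor kinase gene AXL at -0.77 ± 0.05. In R4KO_2 cells 2 were higher and 4 lower than in Ctrl cells, with EPHA2 at 0.85 ± 0.14 and FGFR1 at 0.63 ± 0.06. In R4KO_1 cells 3 were higher and 4 lower, with FGFR4 at 0.67 ± 0.06 and FGFR2 at -0.67 ± 0.11. BX-795 gave 5 higher and 3 lower than R4KO_2, with AXL at 1.16 ± 0.05 and FGFR4 at 0.74 ± 0.06. H-151 gave 5 higher and 4 lower, with AXL at 1.0 ± 0.05 and FGFR4 at 0.87 ± 0.06.

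Of the 19 cascade genes, 7 were higher and 10 lower in iR4 than in Vehicle cells, 1 of them by 2-fold or more, and the list's median log2 fold change was -0.17. The named genes were the scaffold gene KSR1 at 1.32 ± 0.08 and NF1, which encodes the RAS inhibitor neurofibromin, at -0.75 ± 0.04. With H-151 9 were higher and 5 lower than in iR4 cells, with KSR1 at -1.08 ± 0.08 and NF1 at 0.73 ± 0.04. In R4KO_2 cells 6 were higher and 9 lower than in Ctrl cells, with HRAS at -0.78 ± 0.05 and NF1 at -0.67 ± 0.04. In R4KO_1 cells 5 were higher and 9 lower, with KSR1 at 0.82 ± 0.07 and HRAS at -0.58 ± 0.05. BX-795 gave 8 higher and 8 lower than R4KO_2 cells, and H-151 8 higher and 7 lower. SOS2, which encodes a RAS exchange factor, was at -0.90 ± 0.06 with BX-795 and -0.83 ± 0.06 with H-151, and HRAS at 0.83 ± 0.04 and 0.84 ± 0.04.

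Of 14 other genes known as ERK targets, 7 were higher and 3 lower in iR4 than in Vehicle cells, a share in all near the 71.9% of all genes, led by PHLDA1 (2.42 ± 0.07) and FOSL1, which encodes an AP-1 subunit (1.54 ± 0.08). With H-151 3 were higher and 8 lower than in iR4 cells, with PHLDA1 at -2.56 ± 0.08 and FOSL1 at -1.64 ± 0.08. In R4KO_2 cells 6 were higher and 6 lower than in Ctrl cells, and in R4KO_1 cells 4 were higher and 10 lower. PLAUR, which encodes the urokinase receptor, was at 1.54 ± 0.13 in R4KO_2 and 1.04 ± 0.14 in R4KO_1 cells, and the cytokine gene LIF at 0.92 ± 0.15 and 0.80 ± 0.15. BX-795 gave 6 higher and 5 lower than R4KO_2 cells, with PLAUR at -0.93 ± 0.12 and FOS at 0.84 ± 0.06. H-151 gave 3 higher and 6 lower, with PLAUR at -1.20 ± 0.13 and the immediate early gene EGR1 at 1.03 ± 0.08.

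The 14 other phosphatases and inhibitors held some of the largest changes of the pathway. DUSP1, which encodes a nuclear MAP kinase phosphatase, averaged 39.9 ± 8.32 CPM in H151_iR4 cells, 323 ± 54.8 in iR4 cells and 34.4 ± 3.40 in Vehicle cells (SD, n = 3 each). Its log2 fold change was 3.24 ± 0.10 in iR4 over Vehicle cells and -3.01 ± 0.10 in H151_iR4 over iR4 cells (SE). DUSP10, which encodes a phosphatase of p38 and JNK, was at 2.68 ± 0.10 in iR4 over Vehicle cells and -3.04 ± 0.11 in H151_iR4 over iR4 cells. In the knockouts it was at 1.93 ± 0.13 in R4KO_2 and 1.55 ± 0.13 in R4KO_1 over Ctrl cells, and the phosphatase gene DUSP8 was at 1.85 ± 0.15 in R4KO_2 and 1.41 ± 0.16 in R4KO_1 cells. DUSP10 fell with BX-795 (-1.12 ± 0.11) and H-151 (-1.52 ± 0.12) against R4KO_2 cells, while DUSP2, a nuclear phosphatase gene, was higher by 2.03 ± 0.07 with BX-795 and 2.31 ± 0.07 with H-151. By count, 7 of the 14 were higher and 4 lower in iR4 over Vehicle cells, 4 higher and 8 lower in H151_iR4 over iR4 cells, 7 higher and 4 lower in R4KO_2, 6 higher and 3 lower in R4KO_1, and 5 higher and 7 lower with each inhibitor.

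**Figure D4:**
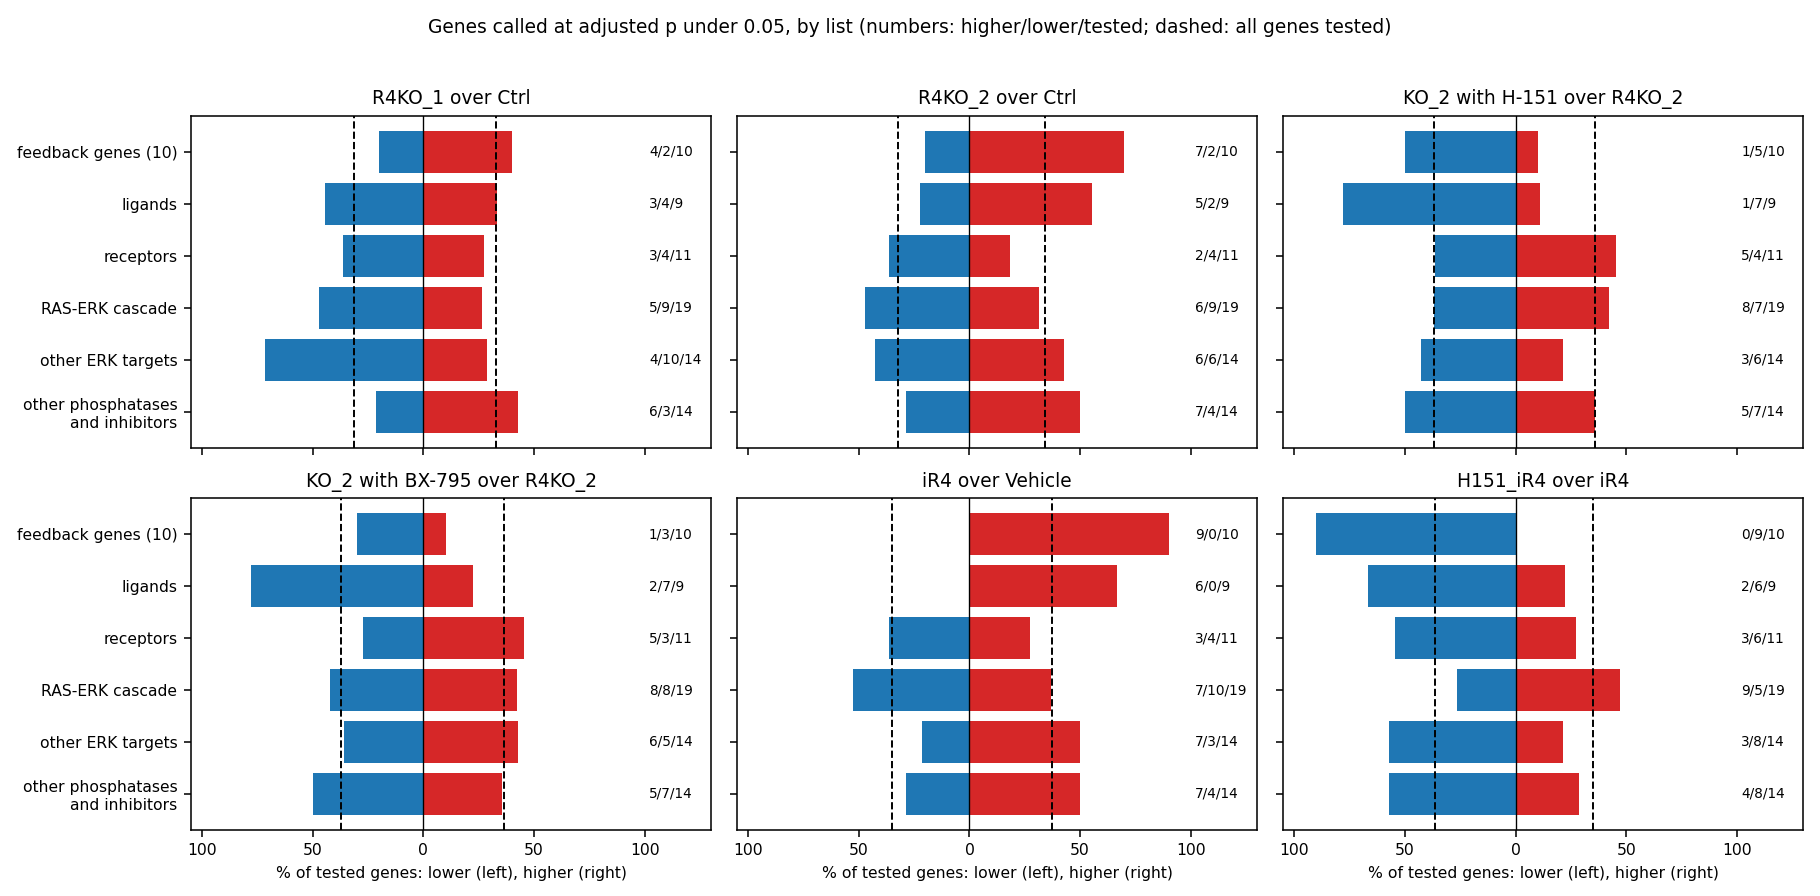
Percent of tested genes that were higher (right) or lower (left) at an adjusted p under 0.05 in 6 comparisons, for the 10 genes and 5 other lists, with counts at the right as higher, lower and tested; dashed lines are all genes tested. In iR4 over Vehicle cells the 10 genes have 9 higher and 0 lower, and the cascade genes 7 higher and 10 lower.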

How the data were processed

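The 24 SCC1 libraries were deposited as raw read counts per Ensembl gene ID, and per the submitters' processing notes the authors used featureCounts 2.0.1 and HISAT2 2.2.1 with the build hg38, along with DESeq2 1.42.0, Trim Galore 0.6.4 and FastQC 0.11.9, while the annotation and strand setting of the counting are not named. Per the labels' protocols the RNA was polyadenylated and primed with random hexamers, although a label field names the molecule genomic DNA. An ID with several symbols is repeated in the files (2859 repeated lines) and was used once.

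The counts were fitted with edgeR 4.0.16 in R 4.3.3 (limma 3.58.1), with TMM scaling, filterByExpr at a minimum count of 10, the quasi-likelihood F test and Benjamini-Hochberg adjustment over all genes tested. A gene was called at an adjusted p under 0.05. The knockout fit held 15 libraries and 14348 genes, the iR4 fit 9 libraries and 14000 genes, and differences between effects came from all 24 libraries and 14585 genes. The scripts were tested on simulated data. Levels are CPM scaled over the 24 libraries, and CPM per kb uses GENCODE v29 exon lengths. Counting error is largest for SPRY1.

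The 10 genes, the gene lists and the rules were chosen with earlier results of these data known. Every member is named, with each library given where it passed at 2-fold in any comparison. Beyond them, the text names the 2 called genes with the largest change in each list and comparison (mean log2 CPM of at least 2), the 3 genes most like DUSP6 and SPRY4, REXO4, and genes that overlap a member. PXDN and SLC12A3 were named because earlier results put them high in R4KO_1 and inhibitor-treated KO_2 cells. Alternatives were RLE scaling, no filter, a replicate block, DESeq2 1.42.0, other sets of libraries, each library left out, and R4KO_1 as the reference for the inhibitors. The mouse tumour libraries were not used here.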

Additional observations from a re-analysis of the deposited data

Results flagged for a closer look

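Each result here had a difference between groups or between effects that itself passed the edgeR test in the fit across all genes (adjusted p under 0.05). The values are differences on the log2 scale, and no explanation was weighed.

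Between the knockouts, R4KO_2 minus R4KO_1, the difference was 0.89 for SPRY1, 0.52 for SPRY4, 0.86 for DUSP5 and 0.68 for DUSP6.

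For the iR4 effect minus the R4KO_1 effect, the difference was 2.06 for SPRY1, 1.44 for SPRY2, 1.95 for SPRY4, 0.35 for SPRED1, 0.73 for SPRED2, 1.59 for DUSP4, 2.45 for DUSP5, 2.05 for DUSP6, 0.84 for ETV4 and 1.22 for ETV5. Without Ctrl replicate 1 or 2, R4KO_1 replicate 1 or 2, or Vehicle replicate 1, the SPRED1 difference was 0.24 to 0.33 and did not pass.

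For the iR4 effect minus the R4KO_2 effect, it was 1.17 for SPRY1, 1.07 for SPRY2, 1.42 for SPRY4, 0.57 for SPRED2, 1.58 for DUSP4, 1.59 for DUSP5, 1.36 for DUSP6, 0.71 for ETV4 and 1.28 for ETV5. SPRY1 was lower in both knockouts than in Ctrl cells and did not pass in iR4 over Vehicle cells.

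For the H-151 effect in iR4 cells minus that in KO_2 cells, it was -0.90 for SPRY2, -1.75 for SPRY4, -0.53 for SPRED1, -2.76 for DUSP4, -2.34 for DUSP5, -1.18 for DUSP6, -0.66 for ETV4 and -0.98 for ETV5.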

How the results depend on the processing

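No call of the 10 genes in iR4 over Vehicle or in H151_iR4 over iR4 cells was lost by leaving out any 1 library. Small changes were less stable. For BX-795 against H-151 the number of the 10 genes called, 2, was 4 with no filter, 1 with DESeq2, 6 when only the 2 groups were fitted, and 1 to 2 with a library left out, and all genes called, 1387, were 2653 with only the 2 groups and 814 to 1015 with a library left out. DESeq2 lost DUSP4 and DUSP6 for BX-795 against R4KO_2, and the fit of all 24 libraries lost SPRY4 and ETV5 for H151_iR4 against Vehicle. With a library left out, BX-795 against Ctrl had 4 to 6 called (7 with all), where 49.6% to 52.3% of all genes passed. For R4KO_2 against R4KO_1 the count was 3 to 10 (4 with all), where 25.4% to 32% of all genes passed. In that comparison ETV5 ran from -0.32 to 0.29. With R4KO_1 as the reference for the inhibitors, chosen after seeing the data, SPRY4 and DUSP6 stayed lower and ETV4 higher with H-151. SPRY1 (0.050 with H-151, 0.77 with BX-795), DUSP5 (0.20 with H-151, 0.28 with BX-795) and DUSP6 (0.28 with BX-795) turned in direction. The cause was not tested. Of 140 gene and comparison pairs, DESeq2 lost 10 calls, RLE scaling gained 1, and no filter gained 16 and lost 1. Where only the 2 groups were fitted, 97 pairs stayed the same, 11 gained a call and 2 lost it. In the fit of all 24 libraries 106 stayed the same, 2 gained a call and 2 lost it. Over all fits with a library left out, 949 results stayed the same, 55 lost a call, 15 gained one and 1 turned in direction. Replicate numbers did not pair the libraries (39 pairs, r from -0.07 to 0.15, 1 over 0.1). The fit with the replicate block kept 138 of the pairs and gained 2 calls, ETV4 with BX-795 over R4KO_2 (0.31, edgeR adjusted p = 0.0442) and SPRY1 for the H-151 effect in iR4 minus KO_2 cells (0.79, adjusted p = 0.0451).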
